A study of Mus musculus with 27 samples.

Results

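The named C/D box snoRNAs are a set of 73 entries among the 1013 small RNA entries of a table covering 3 mouse cell types, each split into chromatin, nucleoplasm and cytoplasm. They were chosen by name alone, as entries of class snoRNA whose symbol begins with Snord, from 78 such entries and 239 of class snoRNA. The 5 Snord entries left out were Snord13, whose work differs from that of the others, and Snord22, Snord47, Snord78 and Snord80, which lie at the clustered snoRNA hosts on chromosomes 19 and 1. The rule uses no measured value, but it was set with earlier results of these data known. The mESC are the E14 embryonic stem cell line, grown on gelatin with LIF, a cytokine that keeps such cells undifferentiated. The mNPC are a neural progenitor line made in the depositing laboratory and fed daily with EGF and FGF at 10 ng/ml, and the mCtx are cortical neurons taken directly from tissue and held in culture for 5 days. None of the groups carried an engineered allele or a further treatment according to the labels, and mESC and mNPC are each represented by 1 line. There were 3 libraries for each of the 9 combinations of cell type and fraction, 27 in all. The labels call them biological replicates without naming the cultures, so the p-values reflect library-to-library spread only, part of which may be technical.

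C/D box snoRNAs are small nucleolar RNAs that carry a C box near the 5′ end and a D box near the 3′ end. Both boxes are bound by a core of proteins that includes fibrillarin, NOP56 and NOP58, and the bases just upstream of the D box pair with a target RNA, on which fibrillarin adds a methyl group to the 2′ oxygen of the ribose. Most targets lie in 18S, 28S or 5.8S ribosomal RNA, some in the spliceosomal U6 snRNA, and a few C/D snoRNAs serve the cutting of the ribosomal precursor. In mammals nearly all are cut out of introns of host genes, many of which encode ribosomal or nucleolar proteins or are spliced RNAs with no known protein. The nucleolus, where they work, is held together with chromatin when cells are fractionated.

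The values are RPM, the read counts of a library as the authors scaled them to a common total. RNA under 200 nt was depleted of ribosomal RNA, and libraries of 120 to 160 bp were cut from a gel. The adapters of such a kit make up most of that length, so the inserts were shorter than a whole snoRNA, and the table does not say which part of a snoRNA its reads cover. A level below is therefore the level of short pieces assigned to that snoRNA. Each library had a lowest value above 0, between 5.16 and 59.07 RPM, and anything under it was listed as 0, so a 0 is not read as absence. The depth in reads is not known, and no counting intervals are given.

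The labels were checked against miRNA markers. A list of stem cell miRNAs summed to between 11965 and 58452 RPM in mESC and to 0 in all mNPC and mCtx libraries, while a neural list summed to at most 1471 RPM in mESC and at least 38976 RPM elsewhere. A list for other cells (blood, endothelium, mesenchyme and oligodendrocyte lineage, 8 entries) summed to between 1139 and 9111 RPM in mESC, 112 and 486 RPM in mNPC, and 2192 and 4017 RPM in mCtx. The part of such cells in the results was not tested. Of the nuclear RNAs Rnu3a, Rnu7, Scarna9 and Scarna10, the sum was at least 849 RPM in chromatin and at most 101.9 RPM in cytoplasm. In nucleoplasm it lay between 88.3 and 936.6 RPM, below chromatin within each cell type. Rnu3a alone went the other way in mESC, with means of 0 RPM in chromatin and 432.5 RPM in nucleoplasm.

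The sequences of 16 members are shown because the results turn on them: the 8 with the highest chromatin level come first, then members that differed between cell types, and last the pair Snord50a and Snord50b, which differ by the single substitution C50A, counted from 1 at the 5′ end. They were read from the GENCODE M21 transcripts of the GRCm38 build, in the DNA alphabet. Capitals mark the C box (ATGATGA or GTGATGA, with at most 1 other base) and the D box (CTGA).
Snord69: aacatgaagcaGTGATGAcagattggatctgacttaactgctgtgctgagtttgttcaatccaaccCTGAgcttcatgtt
Snord104: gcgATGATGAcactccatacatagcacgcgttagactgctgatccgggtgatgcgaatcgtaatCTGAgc
Snord99: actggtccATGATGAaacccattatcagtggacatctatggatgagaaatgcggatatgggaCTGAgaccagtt
Snord52: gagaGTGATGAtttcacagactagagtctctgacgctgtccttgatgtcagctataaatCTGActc
Snord49a: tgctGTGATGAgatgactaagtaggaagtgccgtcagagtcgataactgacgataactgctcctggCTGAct
Snord93: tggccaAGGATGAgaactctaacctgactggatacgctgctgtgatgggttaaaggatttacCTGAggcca
Snord57: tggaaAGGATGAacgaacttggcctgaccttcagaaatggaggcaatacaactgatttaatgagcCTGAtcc
Snord60: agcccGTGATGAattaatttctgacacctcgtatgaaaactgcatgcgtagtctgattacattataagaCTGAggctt
Snord64: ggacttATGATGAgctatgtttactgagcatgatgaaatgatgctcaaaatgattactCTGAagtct
Snord85: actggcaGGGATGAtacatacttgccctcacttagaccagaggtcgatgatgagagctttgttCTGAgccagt
Snord90: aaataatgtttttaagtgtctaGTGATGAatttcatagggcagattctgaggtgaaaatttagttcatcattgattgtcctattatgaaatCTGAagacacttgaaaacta
Snord83b: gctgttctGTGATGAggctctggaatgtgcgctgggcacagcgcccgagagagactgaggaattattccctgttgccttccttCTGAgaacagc
Snord14c: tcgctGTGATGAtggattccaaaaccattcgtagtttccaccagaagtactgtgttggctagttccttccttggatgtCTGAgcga
Snord1c: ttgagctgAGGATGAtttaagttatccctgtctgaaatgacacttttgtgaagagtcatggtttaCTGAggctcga
Snord50a: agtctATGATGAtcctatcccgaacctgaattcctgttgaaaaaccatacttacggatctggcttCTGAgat
Snord50b: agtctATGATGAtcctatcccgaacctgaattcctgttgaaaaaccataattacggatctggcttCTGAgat

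Sequence bore out the name for most members. A C box within the first 25 bases was found in 69 of 73 members, in 46 of them without a mismatch, and a D box within the last 25 bases in 72. Both were found in 68, or 93.2%, against 59.8% of the 97 snoRNA entries known only by a Gm name outside the left-out regions and 7.14% of the 28 H/ACA box snoRNA and scaRNA entries. A match is a description of these letters and no proof of a working box, and Snord118, Snord68, Snord88a and Snord88c had no C box by this search. Members were 64 to 238 nt long with a median of 78 nt, the longest being Snord17 in the gene of the sorting nexin Snx5.

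Of the 73 members, 65 lay in an intron of a gene on the same strand, 6 overlapped an exon of a host transcript, and Snord104 and Snord118 had no host. The host was a ribosomal protein gene for 20, another protein-coding gene for 34 and a long non-coding RNA gene for 17. Several hosts make proteins of the snoRNA machinery itself: Nop56 holds Snord57 (chr2:130278016-130278087) and Snord110, Nop58 holds Snord70 and Snord11, and Ncl, the gene of nucleolin, holds Snord82. Snord69 (chr14:31014287-31014366, minus strand) and Snord19 lie in introns of Gnl3, which encodes the nucleolar GTPase nucleostemin. Snord64 (chr7:59978808-59978874, minus strand) and Snord107 lie in the imprinted Snurf-Snrpn region, within the model Gm38393. By known target, 23 members were grouped under 18S rRNA, 33 under 28S rRNA, 2 under both, and 4 under U6 snRNA or 5.8S rRNA. Snord118, also called U8, acts in processing of the 28S precursor, and 10 members were given no target here.

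The members together made up a large share of chromatin libraries and a very small one of cytoplasm. In mESC chromatin they held 27.9% ± 1.37 of all listed RPM, against 2.24% ± 1.05 of nucleoplasm and 0.258% ± 0.082 of cytoplasm (± SD over the n = 3 libraries of a group, here and below). In mNPC the shares were 17.3% ± 3.74, 1.10% ± 0.259 and 0.0355% ± 0.0142. In mCtx they were 15.1% ± 1.15, 0.801% ± 0.112 and 0.0354% ± 0.00641. The 3 fractions did not overlap in any cell type, and every mESC chromatin library lay above every mNPC and mCtx one. Within the snoRNA reads alone the members held much the same share everywhere, with group means from 54.4% to 68.6%, so the fall from chromatin to cytoplasm was shared with the other snoRNAs.

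**Figure D1:**
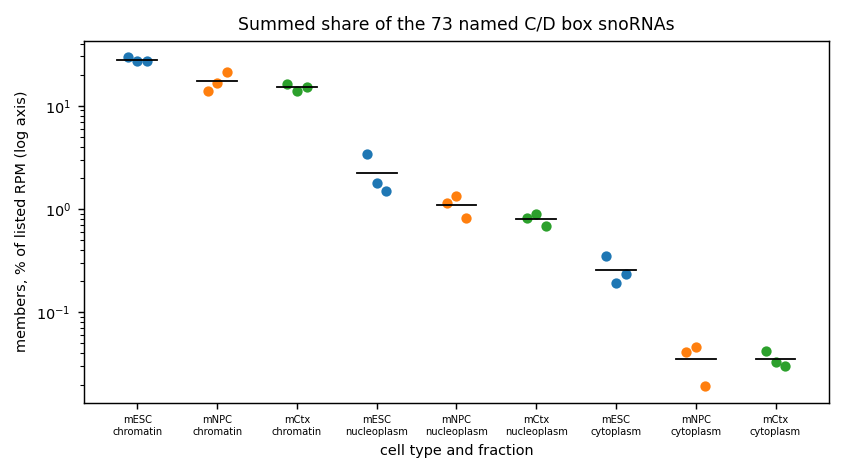
Share of all listed RPM held by the 73 named C/D box snoRNAs in each of 27 libraries (points; the line is the group mean), by cell type and fraction, on a log axis. Chromatin libraries lie between 13.9% and 29.5%, nucleoplasm between 0.681% and 3.44%, and cytoplasm at or under 0.350%.

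A few members carried most of the signal. The 5 highest members of a library held on average 51.5% of the summed level in mESC chromatin, and more in the other groups, up to 92.9% in mNPC cytoplasm. In chromatin, 46 members were above 0 in all 3 mESC libraries, 43 in mNPC and 43 in mCtx, and 31 were above 0 in all 9. In cytoplasm only 6, 2 and 8 members were above 0 in all 3 libraries of mESC, mNPC and mCtx, and 18 were above 0 in any of the 9. No member was at 0 in all 27 libraries.

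**Figure D2:**
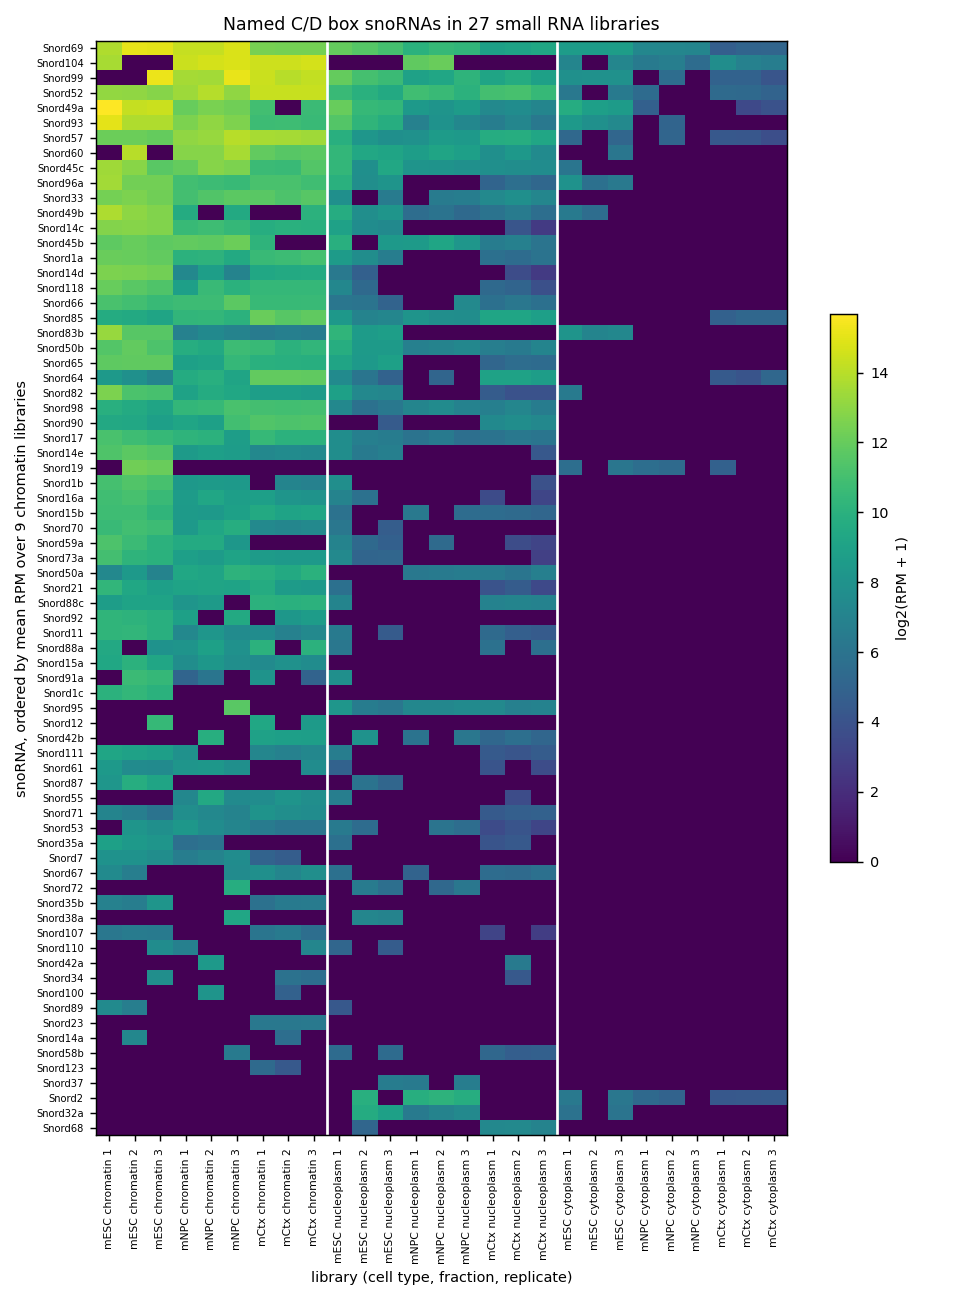
Level of each of the 73 members (rows, ordered by mean chromatin RPM) in each of the 27 libraries (columns, grouped by fraction), as log2(RPM + 1); the darkest colour is a value listed at 0. Chromatin is filled for most members, cytoplasm for 18, and Snord37, Snord2, Snord32a and Snord68 at the bottom are listed at 0 in all 9 chromatin libraries.

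The 12 members with the highest mean over the 9 chromatin libraries were Snord69, Snord104, Snord99, Snord52, Snord49a, Snord93, Snord57, Snord60, Snord45c, Snord96a, Snord33 and Snord49b. Snord69, which guides methylation of 28S rRNA, stood at 14022, 35104 and 32582 RPM in mESC chromatin. The mNPC libraries had 19909.8, 19836 and 27525 RPM and the mCtx ones 5618, 5395 and 5345 RPM. Its mCtx values lay below all the others. Per nucleotide of its own length the mean chromatin level was 254 RPM for Snord104, 232 for Snord99, 230.0 for Snord69 and 204 for Snord52, all guides for 28S rRNA. Among guides for 18S rRNA the highest was Snord93, at 137 RPM per nt, followed by Snord57. Length itself went with little of the spread: Spearman's rho between length and log2 level over the 73 members in chromatin was 0.09 (mESC), -0.17 (mNPC) and -0.01 (mCtx), given as a description.

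Levels differed with the kind of host gene. The median chromatin level was 24.9 RPM per nt for the 17 members in long non-coding RNA hosts, 8.2 for the 34 in other protein-coding genes and 1.35 for the 20 in ribosomal protein genes. The ranges overlapped widely, from 0.1 to 232 RPM per nt for non-coding hosts and from 0 to 43.8 for ribosomal protein hosts, and no test was made of this grouping. The highest member of a ribosomal protein host was Snord33 in Rpl13a, a guide for 18S rRNA, at 5302, 6016 and 4875 RPM in mESC chromatin.

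**Figure D3:**
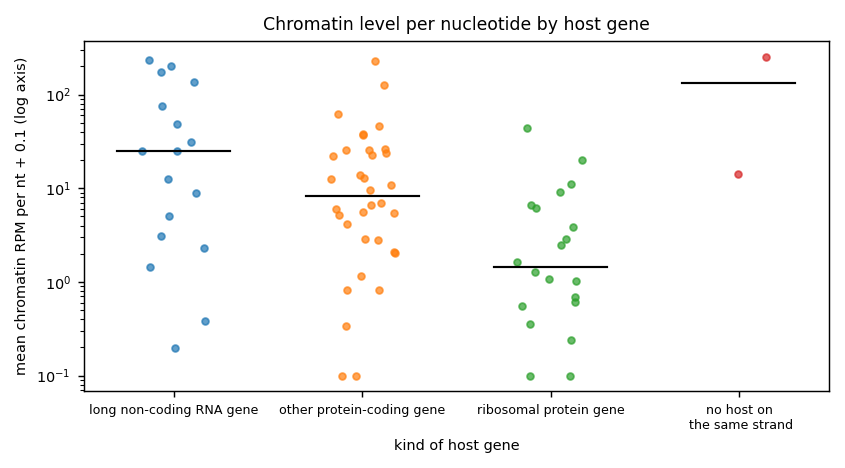
Mean level over the 9 chromatin libraries per nucleotide of each member (points; 0.1 was added so that values of 0 can be drawn on the log axis) by kind of host gene, with the group median as a line. The medians are 24.9 for long non-coding RNA genes, 8.2 for other protein-coding genes and 1.35 for ribosomal protein genes before that addition, the groups overlap, and 2 members have no host.

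Snord members cut from one host did not share a level. Rpl13a holds 4 members in its introns: in mESC chromatin Snord33 averaged 5398 ± 577 RPM, Snord35a 375 ± 100.0 RPM, Snord34 was at 0, 0 and 214 RPM and Snord32a was listed at 0 in all 3 libraries. In Nop56, Snord57 stood at 12309, 12120.0 and 11006 RPM in mCtx chromatin and Snord110 at 0, 0 and 143.1 RPM. In Gnl3, Snord19 was listed in 2 mESC chromatin libraries (0, 4857 and 4428 RPM) and in no other chromatin library, while its neighbour Snord69 was high in all 9. In Rack1, whose protein sits on the small ribosomal subunit, Snord96a was at 11427, 5222 and 5250.5 RPM in mESC chromatin and Snord95 at 0 in all 3. Other hosts held members closer to each other: in mESC chromatin the means of Snord70 and Snord11 in Nop58 were 1737 and 1132 RPM, and those of Snord15a and Snord15b in Rps3 were 784 and 1580 RPM.

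The first question of the design is where in the cell the RNAs lie. Each entry was tested with limma on log2(RPM + 1), with p-values adjusted by the Benjamini-Hochberg method over the 851 entries tested and a threshold of 0.05. Of the members, 69 passed the filter of at least 1 RPM in at least 3 libraries; Snord42a, Snord100, Snord14a and Snord123 did not. A member listed only in chromatin had to differ from cytoplasm to be called at all, so the counts describe the set and do not test it. Differences are in log2 units on this scale, with their SE.

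Most members were higher in chromatin than in cytoplasm, and none was called lower with all libraries in the fit. In mESC 1 was called lower without mESC chromatin replicate 3 and 2 without mESC cytoplasm replicate 2. In mESC 51 of 69 were called higher, against 24.9% of all entries called higher and 29.5% lower. In mNPC 47 were called higher, against 19.3% of all entries higher and 19.5% lower, and in mCtx 48, against 20.2% and 23.9%. The members' median difference was 7.87 in mESC, 8.07 in mNPC and 7.29 in mCtx, where the median of all entries tested was 0 in each. In all 3 cell types 37 of the 69 members were called higher, in 2 of them 14, in 1 of them 7, and in none 11. The same was not counted for all entries, but no more than the 19.3% called in mNPC can be called in all 3. When libraries were scaled to equal snoRNA totals, so that a member was compared with the other snoRNAs, mESC had 40 members higher and 5 lower, mNPC 42 higher and 3 lower, and mCtx 40 higher and 2 lower. That scaling moved the median of all entries tested by -3.36 in mESC and -5.97 in mCtx.

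Members of every single-target role were among those called. Among guides for 18S rRNA, 17 of 20 tested were higher in chromatin in mESC, 17 in mNPC and 15 in mCtx, where 24.9%, 19.3% and 20.2% of all entries were higher. Snord14c, in the heat shock gene Hspa8, was at 7016, 7217 and 6536 RPM in mESC chromatin and listed at 0 in all cytoplasm libraries, a difference of 12.76 ± 0.62 SE with adjusted p = 2.58e-13. Among guides for 28S rRNA, 21 of 33 were higher in each cell type. Snord1a was at 4264, 4089 and 3896 RPM in mESC chromatin and 0 in cytoplasm (11.99 ± 0.33 SE, adjusted p = 2.23e-17). The 4 members for U6 snRNA or 5.8S rRNA were called in 4, 3 and 4 cases. Snord118, the processing RNA, was at 4225, 3191 and 2606 RPM in mESC and 1386, 1353 and 1358 RPM in mCtx chromatin, at 0 in every cytoplasm library, and called in all 3 cell types. Of the 9 tested members with no assigned target 8, 5 and 7 were called.

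The largest differences whose groups did not overlap went to members at 0 in all 3 cytoplasm libraries of the cell type, apart from Snord99 and Snord57 in mNPC, which 1 library each listed. In mESC they were Snord14c, Snord14d, Snord33, Snord1a and Snord45b, from 11.85 ± 2.11 SE for Snord45b to that of Snord14c. In mNPC they were Snord60, Snord45c, Snord99, Snord45b and Snord57, led by Snord60 at 13.07 ± 2.34 SE with adjusted p = 0.000116. In mCtx they were Snord60, Snord33, Snord90, Snord96a and Snord98, and Snord33 was at 3182, 2534 and 3117 RPM in mCtx chromatin with 0 in cytoplasm (adjusted p = 2.04e-06).

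For members that were also listed in cytoplasm the size of the difference can be given as a ratio. Snord69 was the only member above 0 in all 9 cytoplasm libraries: at 402, 408 and 428 RPM in mESC, 148, 147 and 138 RPM in mNPC and 24.2, 32.6 and 33.6 RPM in mCtx. Its chromatin mean was 66 times its cytoplasm mean in mESC, 155 times in mNPC and 181 times in mCtx, with adjusted p of at most 8.77e-14, and its sign turned in all 3 when snoRNA totals were made equal (-0.99, -1.91 and -0.86). Among listed snoRNA reads, then, Snord69 took a larger share in cytoplasm than in chromatin. Entries under a library's floor are missing from that total, and fewer members were listed in cytoplasm, so the size of this shift is uncertain.

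Other members listed in all 3 cytoplasm libraries of a cell type were Snord96a, Snord49a, Snord83b, Snord99 and Snord93 in mESC, Snord104 in mNPC, and Snord104, Snord99, Snord52, Snord57, Snord85, Snord64 and Snord2 in mCtx. Snord49a had the highest single cytoplasm value of any member, with 846, 454 and 388 RPM in mESC against 51892, 19924 and 21756 RPM in chromatin, 55.4 times higher (adjusted p = 0.0152). Snord93 was at 358, 231 and 164 RPM in mESC cytoplasm and 32841, 14377 and 14312 RPM in chromatin. Snord96a had 254, 55.2 and 78.7 RPM in mESC cytoplasm and none in mNPC or mCtx cytoplasm. With snoRNA totals made equal, the mESC differences of Snord49a, Snord93 and Snord96a turned to -1.19, -0.62 and -0.89.

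Some of the most abundant members were not called in mESC, where 2 of 3 chromatin libraries listed them at 0. Snord104 stood at 21673, 26303 and 27478 RPM in mNPC and 22666, 23042 and 26175 RPM in mCtx chromatin, but at 12513, 0 and 0 RPM in mESC chromatin and 138, 0 and 144.8 RPM in mESC cytoplasm (-0.23 ± 2.97 SE, adjusted p = 1). In mNPC (8.40 ± 2.97 SE, adjusted p = 0.0299) and mCtx (7.47 ± 2.97 SE, adjusted p = 0.0482) the call for Snord104 was lost whichever library was left out, with adjusted p up to 0.0761 and 0.107, and the sign turned with equal snoRNA totals (-0.75 and -0.90). Snord99 was at 0, 0 and 37541 RPM in mESC chromatin and at 234, 242 and 239 RPM in cytoplasm; without mESC chromatin replicate 3 it was 7.90 lower in chromatin with adjusted p = 3.95e-06. Snord60 was at 0, 16463 and 0 RPM in mESC chromatin and 7136, 7144 and 12569 RPM in mNPC chromatin. These 3 members each had 1 very high mESC chromatin library and 2 at 0, and it was a different library for each.

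Such gaps were seen elsewhere too. A 0 beside a value of at least 590.7 RPM, which is 10 times the highest library floor, occurred within 22 of the 657 pairs of member and group and involved 17 members. After Snord99, Snord60 and Snord104 the highest were Snord19 in mESC chromatin, Snord104 in mNPC nucleoplasm (3588, 4334 and 0 RPM) and Snord95 in mNPC chromatin (0, 0 and 3260.5 RPM). How reads were assigned where sequences overlap is not given in the sources used here, and its part in these gaps was not tested.

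In summed share nucleoplasm lay between the other fractions, but not for every member. Snord104 was at 0 in all mESC and mCtx nucleoplasm libraries, yet at 206.8, 119.2 and 97.4 RPM in mCtx cytoplasm. Snord2 was at 0 in mCtx nucleoplasm and at 18.6, 19.6 and 20.2 RPM in mCtx cytoplasm. Snord19 was listed in 5 cytoplasm libraries and in no nucleoplasm library. Of 69 members, 30 were higher in nucleoplasm than in cytoplasm in mESC and none lower, against 14% and 5.17% of all entries. In mNPC 19 were higher, against 9.4% of all entries and 6.11% lower, and in mCtx 33, against 13.5% and 11.8%. Without mESC nucleoplasm replicate 2, 1 member was called lower in mESC. Members called higher in all 3 cell types numbered 12 of 69. For all entries this was not counted, but it can be no more than the 9.4% called in mNPC. Snord50b, a guide for 28S rRNA, was at 865, 376 and 370.3 RPM in mESC nucleoplasm and 0 in all cytoplasm libraries (8.95 ± 0.33 SE, adjusted p = 4.52e-15). Snord85 was at 596, 591 and 449 RPM in mCtx nucleoplasm and 28, 36.3 and 36.3 RPM in cytoplasm, 16.3 times higher, though it turned to -0.52 with equal snoRNA totals. Snord45c was at 273, 262 and 229 RPM in mNPC nucleoplasm and averaged 208 ± 11 RPM in mCtx nucleoplasm, with 0 in the cytoplasm of both.

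Chromatin exceeded nucleoplasm for most members. In mESC 44 were higher in chromatin and 5 lower, against 19.9% and 30.9% of all entries. In mNPC 39 were higher and 3 lower, against 16.9% and 10.9%, and in mCtx 38 and 3, against 14.9% and 17.2%. The 5 lower in mESC became 3 without any 1 of the mESC chromatin libraries. With equal snoRNA totals the counts of higher and lower became 19 and 9, 27 and 6, and 16 and 7. Snord1a was at 1539.8, 1698 and 2132 RPM in mCtx chromatin and 53.1, 45.9 and 60.4 RPM in nucleoplasm, 33.7 times higher (adjusted p = 8.2e-11). Snord92, a guide for 28S rRNA, was at 1232, 1134 and 942 RPM in chromatin of mESC, with all 3 nucleoplasm libraries at 0 (10.10 ± 1.91 SE, adjusted p = 0.000161). Snord15a was at 644, 1084 and 625 RPM in mESC chromatin and listed at 0 in every nucleoplasm library of any cell type (9.57 ± 0.25 SE in mESC). Among called members with no 0, Snord85 had the smallest ratio in each cell type, 3.49 times in mESC, 5.36 times in mNPC and 6.76 times in mCtx, and each of these turned sign with equal snoRNA totals (-1.63, -1.45 and -1.07).

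A few members ran the other way, with more in nucleoplasm than in chromatin. Snord2, in the translation factor gene Eif4a2, was at 893, 1136 and 878 RPM in mNPC nucleoplasm and listed at 0 in all 9 chromatin libraries (-9.91 ± 1.95 SE for chromatin against nucleoplasm, adjusted p = 0.000459). Snord68, in Rpl13, was at 161, 167 and 127.5 RPM in mCtx nucleoplasm and at 0 in all chromatin (-7.25 ± 0.81 SE, adjusted p = 3.95e-07). Snord95 was at 294.7, 92.5 and 74.4 RPM in mESC, 154, 154 and 176 RPM in mNPC and 163, 110.7 and 122 RPM in mCtx nucleoplasm, so that all 9 nucleoplasm libraries listed it. It was at 0 in chromatin except in mNPC replicate 3, and was called lower in chromatin in mESC (adjusted p = 0.00279) and mCtx (adjusted p = 0.00467).

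Snord32a, which lies in Rpl13a, was at 0, 803 and 486 RPM in mESC and 84.6, 129 and 163 RPM in mNPC nucleoplasm, with 0 in all chromatin, and was called in both (adjusted p = 0.00438 and 0.00306). Snord58b, in Rpl17, was called in mCtx, where it was at 36.8, 24.8 and 27.4 RPM in nucleoplasm and 0 in chromatin (adjusted p = 0.00553). The mCtx chromatin floors were 23.62, 19.41 and 25.11 RPM, so a chromatin level close to that of nucleoplasm could be listed at 0. The size of this difference is therefore uncertain. The other calls of this kind rested on fewer libraries. Snord37 in mNPC, and Snord58b, Snord38a and Snord99 in mESC, lost the call in 4 or 5 of the 6 fits that left out 1 library, with adjusted p up to 0.152 for Snord37, 0.12 for Snord58b, 0.149 for Snord38a and 0.275 for Snord99. Of the members called in this direction, Snord68, Snord32a, Snord58b and Snord38a lie in introns of ribosomal protein genes. Snord2 and Snord37 lie in the translation factor genes Eif4a2 and Eef2, Snord95 in Rack1 and Snord99 in the non-coding host Snhg12. Among all 73 members 20 have a ribosomal protein host. This describes members chosen for the pattern and was not tested.

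**Figure D4:**
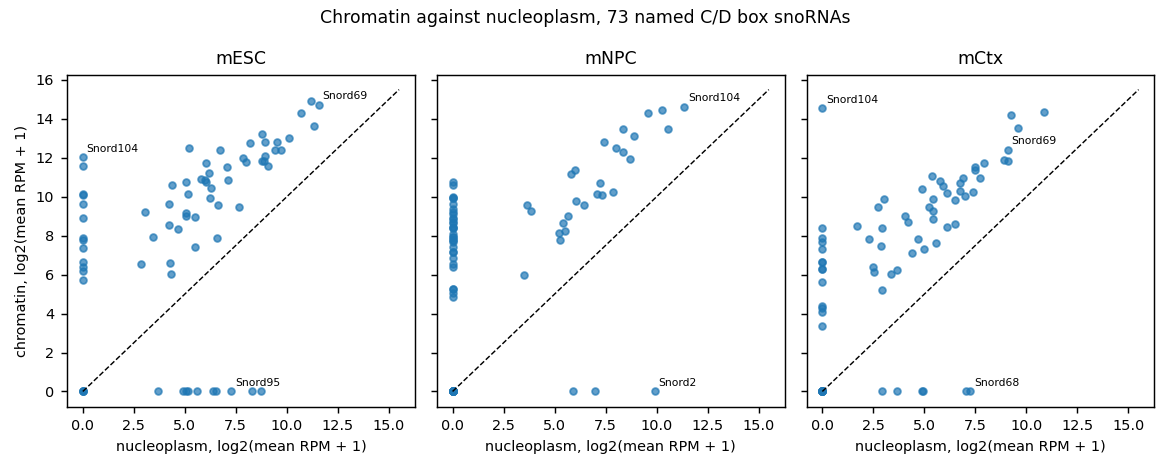
Mean chromatin level against mean nucleoplasm level of the 73 members in mESC, mNPC and mCtx, both as log2(mean RPM + 1) over 3 libraries; the dashed line marks equal levels. Most points lie above the line, points on the left edge were listed at 0 in nucleoplasm, and those on the bottom edge, such as Snord2 in mNPC and Snord68 in mCtx, at 0 in chromatin.

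The second question is how the members differ between stem cells, progenitors and neurons. The comparisons below share libraries, since mESC chromatin is the base of both mNPC and mCtx against mESC, so calls in both are not independent. In bulk libraries fewer cells with a snoRNA and less of it per cell cannot be told apart. In chromatin 21 members were lower and 8 higher in mNPC than in mESC, against 29% and 15.9% of all entries, so the lower calls were near the background. In mCtx against mESC 28 were lower and 12 higher, against 29.3% and 22.8%. In mCtx against mNPC 6 were lower and 7 higher, against 11.9% and 16%. Without mESC chromatin replicate 3 the 8 higher in mNPC became 5, and without mCtx chromatin replicate 3 the 7 higher in mCtx than in mNPC became 4. The members' median difference was -1.43, -0.96 and 0 in these comparisons, where that of all entries tested was 0.

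These splits depended on scaling. With equal snoRNA totals, lower and higher became 13 and 8 for mNPC against mESC, 11 and 12 for mCtx against mESC, and 4 and 7 for mCtx against mNPC. With reads outside snoRNA made equal, they became 26 and 5 for mNPC against mESC. No called member changed sign between these scalings in mNPC against mESC or in mCtx against mNPC, and in mCtx against mESC Snord35b alone did (-0.96, turning to 0.11 with equal snoRNA totals).

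Among the members lower in neurons, Snord83b in the ribosomal protein gene Rpl3 had the largest ratio of those above 0 in every library compared. Its chromatin levels were 9920.4, 3036 and 3123 RPM in mESC, 117, 174 and 129.9 RPM in mNPC and 89.7, 108 and 95.4 RPM in mCtx. All mESC values lay more than 10 times above all others, and the mCtx mean was 0.0182 of the mESC mean (-5.53 ± 0.43 SE, adjusted p = 5.85e-10). The same was seen in nucleoplasm, with 1239, 385 and 431 RPM in mESC and 0 in the other cells.

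The 3 Hspa8 members, guides for 18S rRNA, were all lower. Snord14c was at 7016, 7217 and 6536 RPM in mESC, 1491, 1812 and 1390.0 RPM in mNPC and 884, 971 and 955 RPM in mCtx, so that mCtx was 0.135 of mESC (adjusted p = 0.000476). Snord14e went from 2909.6 ± 350.0 RPM in mESC to 175 ± 15.7 RPM in mCtx (0.06 of mESC, adjusted p = 4.62e-05). Snord14d was at 6221, 5834 and 5216 RPM in mESC, 159, 437 and 129.9 RPM in mNPC and 648, 743 and 764 RPM in mCtx, with its lowest values in mNPC. Its mCtx call (adjusted p = 0.0208) became -2.94 (adjusted p = 0.0519) without mESC chromatin replicate 1 (the call was also lost without mCtx chromatin replicate 1).

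The members of the non-coding host 2410006H16Rik were lower as well. Snord65, a guide for 18S rRNA, was at 3556, 3666 and 3640.3 RPM in mESC, 471, 536 and 1399.9 RPM in mNPC and 994, 948 and 904 RPM in mCtx, and the mCtx mean was 0.262 of that in mESC (adjusted p = 1.66e-05). Snord49a, from the same host, fell from 51892, 19924 and 21756 RPM in mESC to 1966, 0 and 1628 RPM in mCtx, where replicate 2 was listed at 0 (adjusted p = 0.00221). Snord49b was at 13836, 8311 and 6504 RPM in mESC and 0, 0 and 1059 RPM in mCtx (adjusted p = 0.0013). Its call in mNPC against mESC became -3.57 (adjusted p = 0.201) without mNPC chromatin replicate 2 (the call was also lost without mESC chromatin replicate 1).

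The host 1810032O08Rik holds Snord1a, Snord1b and Snord1c, guides for 28S rRNA. Snord1c was listed at 1061, 1298 and 1004 RPM in mESC chromatin and at 0 in all 24 other libraries, and was called lower in both other cells (-10.12 ± 0.19 SE in mNPC and in mCtx alike). Snord87, in Snhg6, was likewise listed only in mESC: at 301.5, 858 and 569.9 RPM in chromatin and in 2 nucleoplasm libraries. Snord1a fell less, to 0.236 of the mESC mean in mNPC and 0.438 in mCtx.

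Others lower in both mNPC and mCtx with no 0 in chromatin were Snord11, Snord15a, Snord50b, Snord73a and Snord96a. Snord15a stood at 644, 1084 and 625 RPM in mESC and 178, 246 and 193 RPM in mCtx, 0.262 of mESC (adjusted p = 1.93e-06). Snord96a, the highest of the 4 members for U6 snRNA or 5.8S rRNA, fell to 0.238 of mESC in mNPC (adjusted p = 0.00249). In mCtx Snord96a was at 0.294 of mESC (adjusted p = 0.00793), a difference that became -1.29 (adjusted p = 0.057) without mESC chromatin replicate 1. The mCtx call of Snord73a became -1.59 (adjusted p = 0.0633) without mESC chromatin replicate 1. In mNPC the call of Snord73a was lost in 5 of the 6 fits that left out 1 library, all but that without mESC chromatin replicate 3, and that of Snord11 in 5, all but that without mNPC chromatin replicate 2, with adjusted p up to 0.155 and 0.0939.

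Snord69, Snord93 and Snord70 were called lower in mCtx but not in mNPC. For Snord69 the fall came between the progenitor and the neuron: mCtx was 0.243 of mNPC (-2.02 ± 0.27 SE, adjusted p = 4.3e-06), while mNPC against mESC was -0.19 ± 0.27 SE (adjusted p = 0.749). Snord93 went from 32841, 14377 and 14312 RPM in mESC through 6213, 8664 and 6393 RPM in mNPC to 1692, 1797 and 1565 RPM in mCtx. Its mCtx mean was 0.0821 of that in mESC (adjusted p = 0.00181). Snord59a, in Atp5b, was at 769.8, 767 and 307 RPM in mNPC and at 0 in all mCtx chromatin (-9.15 ± 1.06 SE against mNPC, adjusted p = 5.97e-07), but was still listed in 2 mCtx nucleoplasm libraries. Snord45b had 3777, 3551 and 4548 RPM in mNPC and 1169, 0 and 0 RPM in mCtx chromatin (adjusted p = 0.00366).

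Against this, 12 members were higher in mCtx than in mESC chromatin. Snord64 of the Snurf-Snrpn region, which is active from the paternal copy and strongly in neurons, had the largest ratio of those with no 0. It was at 354, 230.4 and 132 RPM in mESC, 792, 959.5 and 567 RPM in mNPC and 3831, 3773 and 3738 RPM in mCtx, with the 3 groups apart. The mCtx mean was 15.8 times the mESC mean (4.09 ± 0.91 SE, adjusted p = 0.000659). In nucleoplasm Snord64 was at 521, 511 and 418 RPM in mCtx against 182, 67.8 and 29.5 RPM in mESC and 0, 34 and 0 RPM in mNPC; the call against mESC, 2.73 with adjusted p = 0.0158, became 2.10 (adjusted p = 0.0865) without mESC nucleoplasm replicate 3. Snord107 of the same region was low, at 71.8, 90.4 and 87.7 RPM in mESC, 0 in all mNPC and 67.3, 86.9 and 50.2 RPM in mCtx chromatin. So its levels did not follow those of Snord64.

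Snord85 was at 785, 746 and 560.3 RPM in mESC, 1291, 1325 and 1075 RPM in mNPC and 4305, 3048 and 3705 RPM in mCtx chromatin. The 3 groups did not overlap, and mCtx was 5.29 times mESC (adjusted p = 2.19e-07) and 3 times mNPC (adjusted p = 0.000112). Snord90, in Rc3h2, was at 686, 659.6 and 460.3 RPM in mESC, 593, 477 and 1902 RPM in mNPC and 2776, 2481 and 2599.8 RPM in mCtx. It was 4.35 times higher in mCtx than in mESC (adjusted p = 0.0233), a difference that became 1.96 (adjusted p = 0.0724) without mESC chromatin replicate 3 (the call was also lost without mCtx chromatin replicate 1). Snord98, a guide for 18S rRNA in Ccar1, was 2.61 times higher in mCtx (adjusted p = 0.00082) and 2.24 times higher in mNPC (adjusted p = 0.00561) than in mESC. Snord71, one of the 4 members for U6 snRNA or 5.8S rRNA, was 2.27 times higher in mCtx (adjusted p = 0.000655). None of these is among the ribosomal protein hosts.

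**Figure D5:**
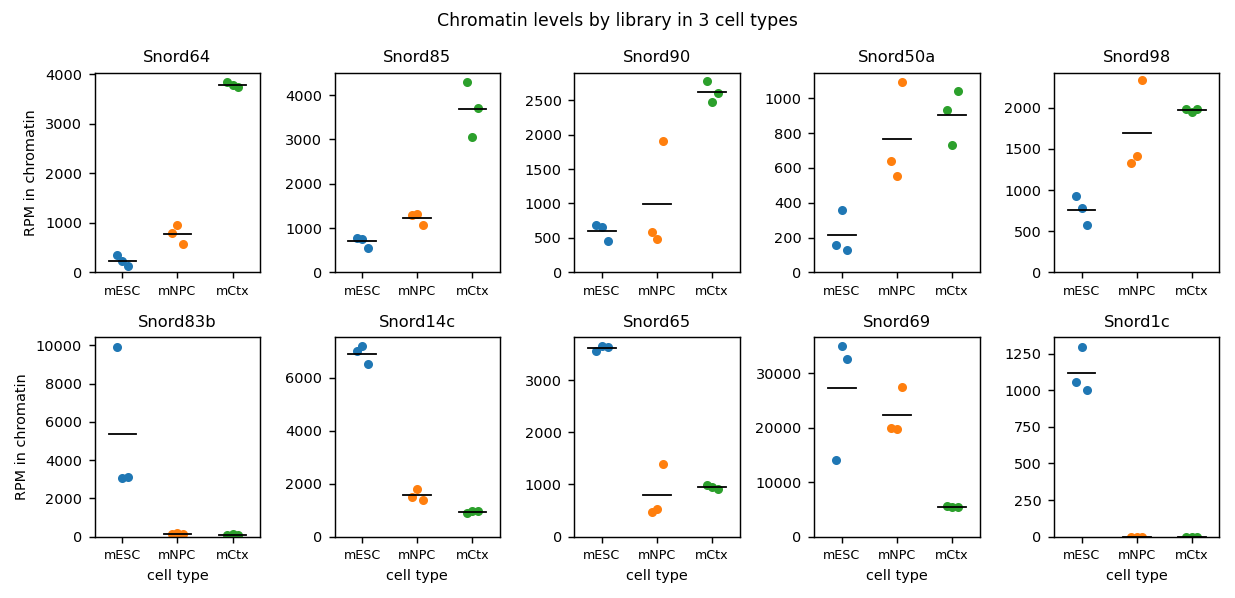
RPM in each chromatin library (points; the line is the mean of 3) of 10 members in mESC, mNPC and mCtx, on linear axes that start at 0. The upper row holds members higher in mCtx than in mESC, led by Snord64 at 15.8 times, and the lower row members that were lower in mCtx, with Snord1c listed only in mESC.

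Apart from that of Snord50a, given below, the remaining higher calls in mCtx rested on values at 0 in mESC. Snord23, in Nop53, was at 77.9, 75.8 and 80.3 RPM in mCtx chromatin and at 0 in all 24 other libraries (6.30 ± 0.17 SE, adjusted p = 6.48e-18). The floors of the mESC chromatin libraries were 47.86, 45.18 and 54.8 RPM, not far under these values. The size of the Snord23 difference is therefore uncertain, and its SE does not cover levels under the floor. Snord55 was at 0 in mESC chromatin, 153, 687 and 183 RPM in mNPC and 198, 272 and 211 RPM in mCtx. Snord42b was at 508, 462 and 442 RPM in mCtx and 0 in mESC chromatin. The calls of Snord60, Snord99 and Snord104 rested on the mESC libraries at 0 described above. For Snord104 the difference became 7.74 (adjusted p = 0.0533) without mESC chromatin replicate 2 (the call was also lost without mESC chromatin replicate 3). For Snord60 it became 4.72 (adjusted p = 0.12) without mESC chromatin replicate 1 (the call was also lost without mESC chromatin replicate 3). The same call of Snord104 in mNPC became 7.81 (adjusted p = 0.0577) without mESC chromatin replicate 2 (the call was also lost without mESC chromatin replicate 3).

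Snord50a and Snord50b, which sit side by side in introns of Snhg5 and differ only by C50A, moved in opposite directions. Snord50a was at 155, 359 and 129.6 RPM in mESC, 642, 555 and 1095 RPM in mNPC and 931, 733 and 1041 RPM in mCtx chromatin, 4.2 times higher in mCtx (2.20 ± 0.33 SE, adjusted p = 7.4e-06). Snord50b was at 2806, 3799 and 2452 RPM in mESC, 873, 719 and 1732 RPM in mNPC and 1472, 1080.3 and 1268 RPM in mCtx, 0.422 of mESC in mCtx (-1.23 ± 0.33 SE, adjusted p = 0.00337). Their sum was 3233 ± 823 RPM in mESC, 1872 ± 836 RPM in mNPC and 2175 ± 317 RPM in mCtx. Reads that do not cover the one differing base cannot be told apart, so the values of each are uncertain.

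The same holds for other near-identical pairs. Snord14c and Snord14d were 97.7% identical, differing by G47A and A49G, Snord1b and Snord1c were 97.4% identical, and Snord88a and Snord88c 94.4%. Summed over each pair, Snord14c with Snord14d stood at 12680 ± 809 RPM in mESC chromatin and at 1807 ± 389 RPM in mNPC and 1655 ± 107 RPM in mCtx. Snord1b with Snord1c stood at 3473 ± 479 RPM in mESC, 346 ± 29.6 RPM in mNPC and 84.4 ± 73.5 RPM in mCtx. Snord88a with Snord88c was at 824 ± 303 RPM in mESC and 1745 ± 661 RPM in mCtx, whose libraries overlapped.

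By role, 12 of 20 tested guides for 18S rRNA were lower in mCtx than in mESC chromatin and 2 higher, where 29.3% of all entries were lower and 22.8% higher. Of 33 guides for 28S rRNA 11 were lower and 5 higher. Among the 9 tested members without an assigned target 3 were lower and 4 higher. By host, 11 of 16 members of non-coding hosts were lower and 3 higher, 12 and 6 of 34 in other protein-coding genes, and 5 and 2 of 17 in ribosomal protein genes. Apart from guides for 18S rRNA and members of non-coding hosts, the shares of lower calls in these groups were near that of all entries. Differences between these groups of members were not tested.

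In nucleoplasm 23 members were lower and 3 higher in mNPC than in mESC, against 35.8% and 12.8% of all entries. In mCtx against mESC 17 were lower and 9 higher, against 31.3% and 20.9%, and in mCtx against mNPC 5 were lower and 18 higher, against 10.3% and 23.5%. All of these shares were near or below the background. Without mESC nucleoplasm replicate 1 the 9 higher in mCtx than in mESC became 15, and the 5 lower in mCtx than in mNPC became 3 without any 1 of the mCtx nucleoplasm libraries. With equal snoRNA totals the mCtx against mESC split became 13 lower and 14 higher, and with the median of always listed entries centred it became 12 and 13; for mNPC against mESC that centring gave 18 lower and 5 higher. Snord65 was at 574, 347 and 486 RPM in mESC, 0 in all 3 mNPC and 34.5, 48 and 43.9 RPM in mCtx nucleoplasm. Snord96a was at 980.5, 212 and 275 RPM in mESC, 0 in mNPC and 32, 51.9 and 36.1 RPM in mCtx. Snord82, from the nucleolin gene, was at 469, 155 and 146 RPM in mESC and again 0 in mNPC. The floors of the mNPC nucleoplasm libraries were at least 30.17 RPM and those of mCtx at most 8.42 RPM, so mCtx values between these could not have been listed in mNPC.

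Above that floor, Snord90 was at 174, 204 and 160.5 RPM in mCtx nucleoplasm, against 0 in mNPC and 0, 0 and 21.6 RPM in mESC (adjusted p = 9.65e-08 against mNPC). Snord50a was at 77.3, 87.1 and 95.1 RPM in mNPC and 89.9, 67.2 and 109 RPM in mCtx nucleoplasm but at 0 in mESC (adjusted p = 3.35e-13 for mCtx). Snord88c was at 121, 134 and 122 RPM in mCtx and 0 in mNPC nucleoplasm. Snord2 ran the other way, at 893, 1136 and 878 RPM in mNPC and 0 in mCtx nucleoplasm (-9.91 ± 1.95 SE, adjusted p = 0.00038).

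Whether the step from cytoplasm to chromatin itself differed between cell types was tested as an interaction. Between mNPC and mESC it differed for 19 members, 8 larger in mNPC and 11 larger in mESC, against 18.9% and 11.9% of all entries. Between mCtx and mNPC it differed for 6, 3 in each direction, against 6.11% larger in mCtx and 11.2% larger in mNPC. These splits moved with scaling: for mNPC against mESC, larger and smaller in mNPC became 9 and 6 with equal snoRNA totals, 6 and 14 with equal reads outside snoRNA, and 10 and 9 with the median centred, which gave 3 and 5 for mCtx against mNPC. For Snord69, listed in every library involved, the step was larger in mNPC than in mESC by 1.32 ± 0.38 (SE) with adjusted p = 0.0121, turning to -0.92 with equal snoRNA totals. For Snord85 the difference of mCtx from mNPC in this step was -3.53 with adjusted p = 5.80e-07. Snord85 was above 0 in all 3 mCtx cytoplasm libraries (28, 36.3 and 36.3 RPM) and in no other cytoplasm library. The floors of the mNPC cytoplasm libraries were 22.49, 28.24 and 40.62 RPM, so such values could be listed at 0 in some of them. The size and sign of this difference are therefore uncertain.

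Other snoRNAs were likewise called higher in chromatin and none lower in mESC and mCtx. In mESC 51 of 69 members were higher in chromatin than in cytoplasm, 60 of 74 tested Gm-named snoRNAs and 16 of 19 H/ACA and scaRNA entries. In mCtx the counts were 48 of 69, 43 of 74 and 8 of 19. For mCtx against mESC chromatin 28 of 69 members were lower and 12 higher, 31 and 8 of the Gm-named entries, and 11 and 2 of the H/ACA entries. The differences between these sets were not tested.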

How the data were processed

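Small RNA libraries of chromatin, nucleoplasm and cytoplasm from mESC, mNPC and mCtx, 3 of each, were compared. The deposited table holds RPM, read counts that the authors scaled to a common total. Aligner, read assignment and depth: not given in the sources used here. Values under a library's floor (5.16 to 59.07 RPM) are listed as 0, and they were not whole multiples of 1 read throughout, so no count test was run. mESC nucleoplasm replicate 3 and mCtx chromatin replicate 2 stood apart: with the floor taken as 10 reads, 2.65% and 5.70% of low values were whole within 0.02 reads, against 54.3% or more elsewhere.

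All 73 members were found at their listed positions in GENCODE M21 (GRCm38), and hosts and sequences were taken from it. Log2(RPM + 1) was fitted with limma 3.58.1 in R 4.3.3: 9 group means over 27 libraries, trend and robust variances, 18 residual degrees of freedom, 17 contrasts, Benjamini-Hochberg over 851 entries, threshold 0.05. Where a group held a 0, no ratio is given. On simulated data for mESC chromatin against nucleoplasm (554 entries), 22.7%, 40.3% and 49.3% of entries changed by 1, 2 and 3 log2 units were recovered, and 2 of 354 unchanged entries were called.

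The members, lists and the rule for named members (the 12 highest in chromatin, the 5 largest non-overlapping differences of each comparison, those listed in all cytoplasm libraries of a cell type, those called against the majority, and gaps at 0) were chosen with earlier results of these data known. Further members, such as Snord11, Snord15a, Snord34, Snord71, Snord73a, Snord98 and those that share a host, were named after their values were seen. Alternatives were other pseudocounts, filters, floors and scalings, a replicate block and leaving out each library.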

Additional observations from a re-analysis of the deposited data

Results flagged for a closer look

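The step from cytoplasm to chromatin differed between mNPC and mESC for 19 members, by limma's test of the interaction on log2(RPM + 1) with adjustment over all entries. Of the members tested 11.6% had a larger step in mNPC and 15.9% in mESC, against 18.9% and 11.9% of all entries. These shares were not far from the background. The largest were Snord99 at 15.04 and Snord60 at 10.45, both larger in mNPC and both resting on 2 mESC chromatin libraries at 0. Of the 12 fits that left out 1 library, 3 lost the call of Snord60, whose difference was then 8.40 (adjusted p = 0.0674) without mESC cytoplasm replicate 3 (the call was also lost without mESC chromatin replicate 1 or mESC chromatin replicate 3). Snord1c at -10.12 and Snord87 at -9.05 had a larger step in mESC, where alone their chromatin was above 0, and Snord55 at 8.07 a larger one in mNPC, where its mESC chromatin was at 0.

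Between mCtx and mNPC the step differed for 6 members. In each direction this was 4.35% of those tested, below the 6.11% of all entries larger in mCtx and 11.2% larger in mNPC. Snord59a at -9.15, Snord7 at -3.87 and Snord85 at -3.53 had a larger step in mNPC; Snord59a was at 0 in all mCtx chromatin libraries and Snord7 in 1 of them. Snord23 at 6.30, Snord35b at 6.26 and Snord107 at 6.08 had a larger step in mCtx, and all 3 were at 0 in mNPC chromatin. Their mCtx chromatin values lay between 50.2 and 90.4 RPM, and the mNPC chromatin floors were 32.48, 47.03 and 59.07 RPM. The sizes of these 3 differences are therefore uncertain. For Snord59a, Snord7, Snord23, Snord35b and Snord107 all cytoplasm libraries were at 0, so the interaction repeats the difference in chromatin. Snord85 was higher in mCtx than in mNPC chromatin and was listed in all 3 mCtx cytoplasm libraries, at 28, 36.3 and 36.3 RPM, and in no mNPC one. The mNPC cytoplasm floors were 22.49, 28.24 and 40.62 RPM, so the size and sign of its difference are uncertain.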

How the results depend on the processing

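Counts of called members depended most on how values at 0 were treated. With every value under 59.07 RPM raised to a common floor they became 45 for mNPC against mESC and 24 for mCtx against mNPC in chromatin, 16 for mNPC against mESC and 8 for mCtx against mNPC in nucleoplasm, 16, 10 and 10 for nucleoplasm against cytoplasm in mESC, mNPC and mCtx, and 37 and 15 for the interactions. A pseudocount of 10 gave 24 for mCtx against mNPC in chromatin. Fits with only the groups compared gave 16 for mESC nucleoplasm against cytoplasm, 15 for mNPC against mESC in nucleoplasm and 11 for the interaction of mCtx with mNPC. Equal snoRNA totals gave 28 and 23 for chromatin against nucleoplasm in mESC and mCtx, and 23 for mCtx against mESC in chromatin. Under that scaling chromatin against cytoplasm turned for Snord69 (-0.99 in mESC, -1.91 in mNPC, -0.86 in mCtx), Snord104 (-0.75 in mNPC, -0.90 in mCtx), Snord49a (-1.19 in mESC, -0.85 in mCtx), Snord93 (-0.62) and Snord96a (-0.89). In mESC, Snord104, uncalled at -0.23, turned to 0.82 with the pseudocount of 10, 1.74 with the common floor, 0.17 with reads outside snoRNA made equal, 0.23 with the median centred and between -4.77 and 2.04 with 1 library left out; Snord99 turned to 1.10 with the common floor, and Snord60 lay between -2.04 and 4.96 with 1 library left out. As a share of snoRNA reads the members held 55.7%, 54.4% and 66.8% in chromatin, nucleoplasm and cytoplasm of mESC, 55.3%, 56.5% and 68% of mNPC, and 68.6%, 58.6% and 62.5% of mCtx; relative to reads outside snoRNA, chromatin stood at 56.6%, 26.1% and 19.3%. Deviations of same-numbered libraries correlated only weakly, between -0.12 and 0.19, and no set of pairs was over 0.1 throughout. With values at 0 in many entries this cannot tell whether same-numbered libraries shared a culture. The replicate block changed no count by more than 1.5 times; the largest change was from 19 to 15 for mNPC nucleoplasm against cytoplasm, and for chromatin against cytoplasm it gave 50, 47 and 48. The block across cell types was added after the data were seen. Without mCtx chromatin replicate 2 the chromatin counts were 42 against mESC and 9 against mNPC. No count of called members in both directions together moved by more than 1.5 times when 1 library was left out. In single directions 12 counts did, and their values stand beside the counts above. The causes of these changes were not tested. The unknown depth and the floors limit what can be said of members near 0.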
